A study of Homo sapiens with 30 samples.

Results

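The genes described here are the protein-coding genes of the cytosolic ribosome, taken from the deposited gene table by symbol: the RPS symbols of the small subunit, the RPL symbols of the large subunit, and RPLP0, RPLP1, RPLP2 and RPSA, without the RPS6K kinases. This gave 86 of 58735 genes, 34 with RPS symbols and 52 with RPL symbols, on 22 chromosomes. They comprise 77 canonical genes, 7 paralogs (RPL3L, RPL7L1, RPL10L, RPL22L1, RPL26L1, RPL39L and RPS27L) and 2 genes of the Y chromosome (RPS4Y1 and RPS4Y2). The rule uses symbols and no measured value, although it was set with earlier results of these data known. After a filter on low counts 84 were tested: RPL39L had no count in any library, and RPS4Y2 was below the filter.

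All libraries came from LNCaP, an established human prostate cancer line that responds to androgen, in which an shRNA lowered endogenous mTOR. An inducible system then supplied no mTOR (empty vector, EV), the wild-type protein (WT), mTOR carrying a nuclear export signal (NES), mTOR carrying a nuclear localization signal (NLS), or the NLS form with the kinase-dead change D2357E (NLSKD). Every group, controls included, spent 48 h in medium with 2% charcoal-stripped serum and then 24 h with either 10 nM of the synthetic androgen R1881 or its solvent, 0.1% ethanol (vehicle). Each of the 10 groups had 3 libraries, and each mTOR form was represented by 1 set of rescued cells, so the form and the cells that carry it cannot be told apart. The labels do not say whether the 3 libraries of a group were separate cultures, so p-values measure the spread between these libraries, which may be technical.

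Ribosomal protein genes are among the most transcribed genes of a dividing cell, and their products are built into the small and large subunits, most of them in a single copy. Their mRNAs begin with a 5′ terminal oligopyrimidine (TOP) tract, a C at the cap followed by a run of pyrimidines. mTOR complex 1 is known for controlling the translation of TOP mRNAs through LARP1 and the 4E-BP proteins, a step that total RNA does not measure. mTOR also favours the synthesis of ribosomal RNA and the assembly of ribosomes.

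The start sites of the genes on which the results turn are shown here because the tract is the element that links these mRNAs to mTOR. Each window holds 10 bases before the start and 15 from it, 5′ to 3′ on the gene's strand, from RefSeq on GRCh38.p14, with the C-led pyrimidine run in capitals where it held at least 5 bases.
RPL22 (chr1:6199581-6199605, minus): cgctcacctcCCTTTCTaactccgc
RPL22L1 (chr3:170870181-170870205, minus): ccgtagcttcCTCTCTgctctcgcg
RPL10 (chrX:154398367-154398391, plus): ggaggagcgcCTCTTTCCCTTCggt
RPL10L (chr14:46651767-46651791, minus): gtagttaagagagcgcattttgact
RPLP0 (chr12:120201097-120201121, minus): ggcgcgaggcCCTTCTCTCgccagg
RPLP1 (chr15:69452808-69452832, plus): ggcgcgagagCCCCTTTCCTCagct
RPL36 (chr19:5690285-5690309, plus): cggcgccagcCCTTCCgccacggcc
RPL13A (chr19:49487598-49487622, plus): aaacctcctcCTTTTCCaagcggct
RPL7L1 (chr6:42879606-42879630, plus): gtgcggcgccgtagctaggagcgga
RPL10 has other listed starts without the run, and RPL10L and RPL7L1 have none at their listed starts.

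Of the 86 genes, 69 had a start in the RefSeq table, with 85 starts in all. A C at the start followed by at least 4 pyrimidines, read on the gene's strand only, stood at 48 of the 85 starts (56.5%), against 4.07% of all 35116 starts in the table. At least 1 such start was found for 46 of 62 canonical genes, for 1 of 5 paralogs (RPL22L1) and for 1 of 2 Y-linked genes (RPS4Y1). Because listed starts can be off by a few bases, a start without the run says only that these letters are not at that position. The other 17 genes had no entry.

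Library totals ran from 21.4 M to 61.8 M gene counts. The targeted gene, MTOR, was lowest in EV, at 25.7 ± 4.86 counts scaled to library size (CPM) under vehicle and 66.0 ± 9.54 under R1881 (SD, n = 3), and between 929 and 5249 CPM as the mean of each rescued group, where transcripts of the introduced mTOR are counted as MTOR too. The 8 luminal markers summed to 3305 to 11689 CPM per library, basal markers to at most 2.70 and immune markers to at most 0.332 CPM. The 5 neuroendocrine markers summed to 9.25 to 37.9 CPM and the 5 mesenchymal markers to 13.8 to 44.8 CPM. Genes of the mitochondrial genome took 3.90% to 11.7% of counts. One feature of the libraries touches every result below: in 9 of 10 groups the library numbered 2 had the highest share of ribosomal protein counts. What the shared number stands for is not given in the labels.

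The 86 genes together took 7.71% of all counts in the median library, from 5.58% in NLS R1881 library 1 to 11.9% in NLS R1881 library 2, a 2.13-fold range that fell inside a single group. Among the groups the mean share was highest in NLS vehicle (9.13% ± 2.14, SD, n = 3) and lowest in NES R1881 (7.26% ± 1.13), a 1.26-fold range. In order between them stood NLS R1881 (8.53% ± 3.17), NLSKD vehicle (8.40% ± 0.774), NLSKD R1881 (8.39% ± 2.08), EV vehicle (8.35% ± 2.26), EV R1881 (7.93% ± 1.46), WT vehicle (7.51% ± 0.492), WT R1881 (7.42% ± 0.730) and NES vehicle (7.35% ± 1.54). The SD of the 10 group means was 0.627 percentage points and the pooled SD within groups was 1.77. Means of 3 libraries vary less than single libraries do, so these SDs are not like for like. Even the libraries of the highest and lowest groups overlapped, at 7.69% to 11.6% in NLS vehicle and 6.04% to 8.25% in NES R1881. In bulk RNA a change in the cells that make up a culture and a change in RNA per cell cannot be told apart.

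**Figure D1:**
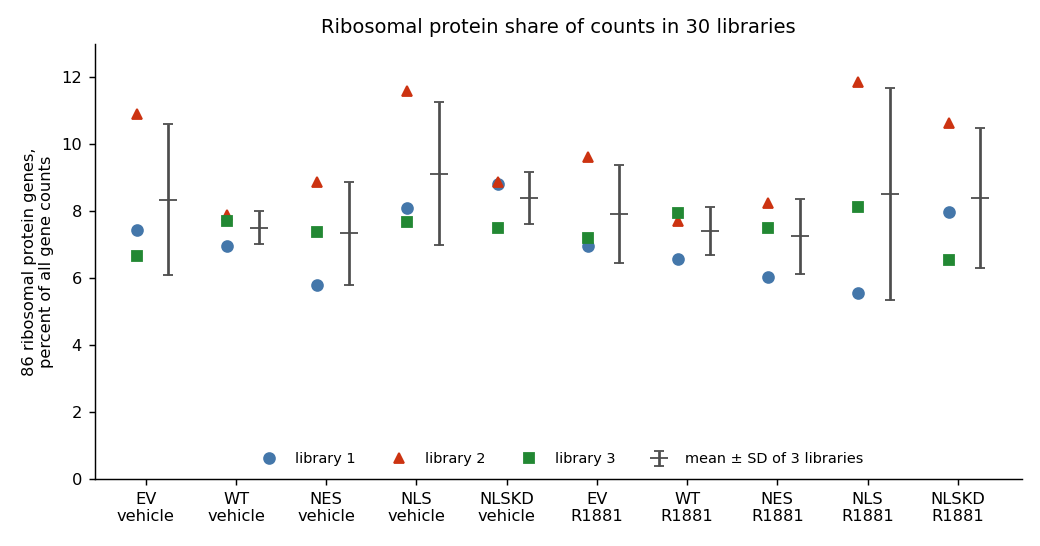
Share of all gene counts taken by the 86 ribosomal protein genes (percent, vertical axis) in each library of the 10 groups; symbols give the library number, and bars the mean ± SD of 3 libraries. Library 2 is the highest point in 9 groups, and the group means lie between 7.26% and 9.13%.

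The small and large subunits moved together. RPS genes took 1.97% to 4.14% of counts and RPL genes 3.59% to 7.73%, while the ratio of RPS to RPL counts stayed between 0.495 and 0.555 over the 30 libraries. Thus the share of the whole set varied 2.13-fold between libraries, while that ratio varied far less.

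Levels were compared between genes per length, as the authors' FPKM (fragments scaled by gene length and library depth), averaged over 30 libraries. For all 86 genes that length was the union of annotated exons, which can far exceed the mRNA. For RPL22 it was 4682 bases, beside a median coding transcript of 693. Levels, their order and ratios between genes therefore depend on the annotation: RPL4, at 3600 CPM beside 4181 for RPL13A, stood at 633 FPKM. The median canonical gene stood at 235 FPKM, with quartiles of 142 and 476. The medians were 216 for the 31 small-subunit genes and 238 for the 46 large-subunit genes. The highest was RPL13A at 1748 ± 376 FPKM (SD over 30 libraries), a large-subunit protein also known for a role in silencing inflammatory mRNAs. It was followed by RPS12 (1144 ± 162), RPS2 (1032 ± 382), RPL7A (991 ± 296) and RPLP0 (883 ± 177), the stalk base to which the acidic proteins RPLP1 and RPLP2 bind. Among the lowest tested members were RPS10 (0.591 ± 0.219 FPKM), RPL3L (0.781 ± 0.348), RPL36A (0.902 ± 0.278) and RPL10L (3.79 ± 2.18).

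**Figure D2:**
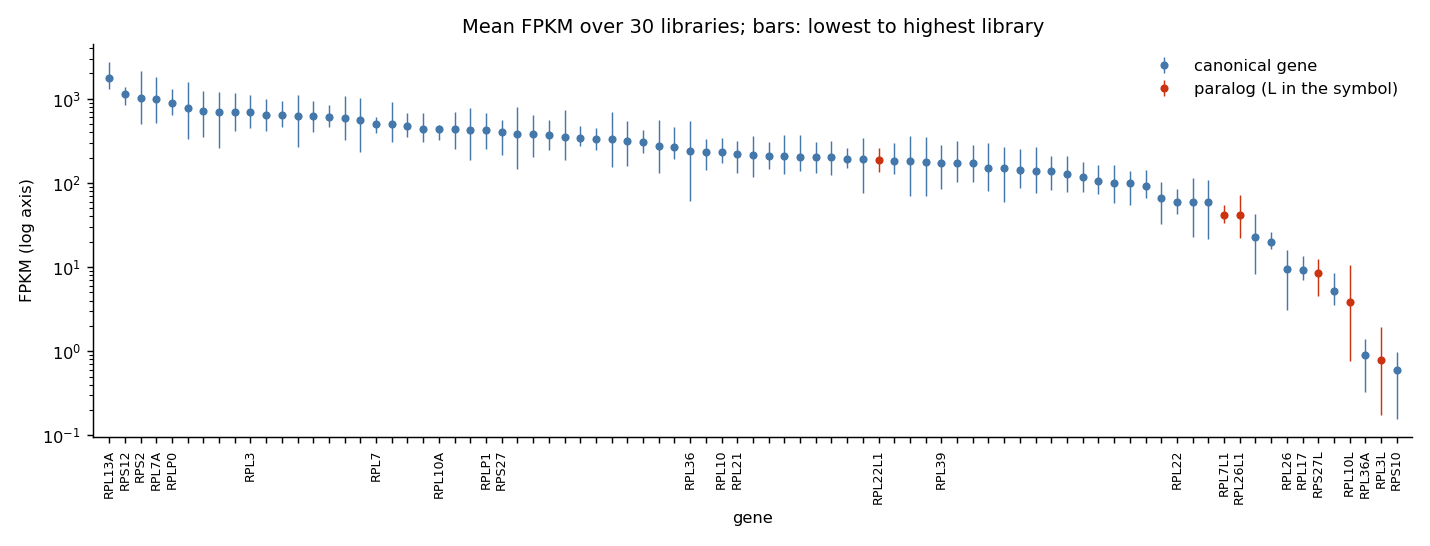
Mean FPKM over 30 libraries (log axis) of the 83 tested members outside the Y chromosome, ordered by level, with some of the genes named in the text labelled; bars run from the lowest to the highest library. Most canonical genes lie within the quartiles of 142 and 476 FPKM or near them. RPL26, RPL17, RPL36A and RPS10 lie at the low end with the paralogs RPS27L, RPL10L and RPL3L.

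Some of these low levels stand beside a sharing of sequence. RPS10 shares 39.4% of its exon bases with genes annotated on the same strand (the readthrough gene RPS10-NUDT3), RPL17 32.7% (the readthrough gene RPL17-C18orf32 and 3 snoRNAs) and RPS2 25.6%. These are the 3 members above 20%. The readthrough genes themselves collected little, 33 counts over 30 libraries for RPL17-C18orf32 and 5 for RPS10-NUDT3. Annotated pseudogenes of RPS10 held 1436% of the counts assigned to RPS10, those of RPL9 162% of its own, those of RPL26 83.4% and those of RPS28 49.2%. RPL9P9 alone held 600874 counts over 30 libraries. How fragments with several matches were treated is not given in the sources used here, so the levels of these genes are uncertain, and the part of either feature in them was not tested.

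The 7 paralogs did not share a level. RPL22L1 stood at 186 FPKM, 3.12 times its namesake RPL22 (59.6), and RPL26L1 at 41.7 FPKM, 4.40 times RPL26 (9.48), whose own value is uncertain as above. These ratios depend on the annotated exon lengths. In CPM, without a length, RPL22L1 read 396 to 580 in EV R1881 and RPL22 202 to 239. RPL7L1 reached 42.1 FPKM beside 497 for RPL7. RPS27L, known as a p53-induced gene, stood at 8.55 FPKM beside 405 for RPS27. RPL10L, a retrogene known from testis, stood at 3.79 FPKM beside 235 for RPL10. RPL3L, known from skeletal and heart muscle, stood at 0.781 beside 694 for RPL3. RPL39L was listed at 0 in every library beside 174 FPKM for RPL39.

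The first question was whether androgen changed the mRNAs of ribosomal proteins in any line. None of the 84 tested members was called in any of the 5 lines (edgeR quasi-likelihood test, two-sided, Benjamini-Hochberg adjusted p under 0.05 over 18296 genes). Over all genes tested, the called share was 9.11% (EV), 6.48% (WT), 8.25% (NES), 4.44% (NLS) and 4.08% (NLSKD). With the replicate number as a block the members called were again 0 in every line, beside 13.5% of all genes (EV), 10.4% (WT), 13.6% (NES), 6.95% (NLS) and 5.95% (NLSKD). At an unadjusted p under 0.05 the test gave 1 member in EV and 0 in the other lines. No share of all genes at that threshold is set beside these counts. DESeq2 also called 0 members in each line. Without the filter on low counts, 2 members were called in WT, RPL26 (log2 change 0.95) and RPL36.

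The members' median log2 change on R1881 was 0.05 (EV), 0.05 (WT), 0.12 (NES), 0.01 (NLS) and 0.08 (NLSKD), beside medians over all genes of -0.04, 0.01, 0.00, 0.02 and 0.01. The number above 0 was 51, 58, 68, 43 and 69 of 84. These medians followed single libraries: in NLS it was -0.39 without NLS R1881 library 2 and 0.26 without NLS R1881 library 1. In EV the median was -0.14 without EV R1881 library 2 and 0.33 without EV vehicle library 2. In NLSKD it was -0.18 without NLSKD R1881 library 2, and in NES -0.03 without NES vehicle library 1. With all libraries numbered 2 left out it was 0.16 (EV), 0.09 (WT), 0.16 (NES), -0.12 (NLS) and -0.06 (NLSKD). Without the libraries above 9% mitochondrial counts the median was -0.09 for EV and -0.13 for NLS. RPL13A, the most abundant member, illustrates the values behind this. Its 3 libraries read 3833, 5928 and 3414 CPM in EV vehicle and 3810, 5007 and 3943 in EV R1881. The groups overlapped, and library 2 was the highest in both.

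The median 95% interval of a member extended 0.58 on the log2 scale to either side of its estimate. In EV the whole interval of the androgen response lay within 1 log2 unit of zero for 71 of the 83 tested members outside the Y chromosome. The number was 62 (WT), 65 (NES), 76 (NLS) and 68 (NLSKD) in the other lines. These intervals are no limit of detection, since single genes with a small spread were called at smaller changes. The differences between androgen responses (each rescued line against EV) called 0 members by edgeR and by DESeq2. At an unadjusted p under 0.05 there were also 0, again with no share of all genes at that threshold. Over all genes the called share of these differences was 0.0437% (WT), 0% (NES), 0.0164% (NLS) and 0.0164% (NLSKD). With the block it was 0.12%, 0.0109%, 0.153% and 0.0929%, with 0 members called.

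The second question was whether restoring an mTOR form changed these mRNAs relative to the empty vector. The 4 comparisons at each treatment share the EV libraries and are therefore not independent of each other. Marker sums moved with them: the mean sum of mesenchymal markers was 23.7 CPM in EV and 31.7 to 42.4 in the rescued groups under vehicle, and 15.7 against 24.7 to 31.4 under R1881. In each of the 8 comparisons 1 of 3 tested mesenchymal markers was called higher, and 1 to 4 of 8 luminal markers were called lower (edgeR). Luminal markers did not all go 1 way: 1 was called higher in WT, NES and NLS under R1881 and in NES under vehicle. The mean luminal sum was above EV in NES under both treatments and below EV in the other rescued groups. Their part in the results below was not tested. Under R1881, 3 of 84 members were called with the WT form (8.49% of all genes were), 2 with the NES form (6.96%), 2 with NLS (6.23%) and 1 with NLSKD (5.75%). Under vehicle, 2 were called with WT (6.71%), and 1 each with NES (4.94%), NLS (4.57%) and NLSKD (4.01%). In each comparison the members' share was below that of all genes, and all of these calls fell on RPL10L, RPS4Y1 and RPL22. RPL22 was the single canonical gene among them. With the replicate block the called share of all genes was 14.3% (WT), 12.3% (NES), 10.7% (NLS) and 10% (NLSKD) under R1881, and 11.2%, 8.06%, 8.59% and 6.58% under vehicle. The blocked fit called 4, 4, 3 and 3 members under R1881 and 3, 3, 2 and 2 under vehicle.

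RPL10L was lower in the rescued lines. Under R1881 its TMM-scaled CPM was 6.82, 8.50 and 6.40 in EV, 1.75, 1.21 and 1.42 in WT, 2.30, 3.57 and 3.73 in NES, 2.62, 4.02 and 2.27 in NLS, and 2.94, 2.69 and 3.61 in NLSKD. The 12 rescued libraries all lay below the 3 EV libraries. RPL10L fell by 2.30 on the log2 scale in WT (SE 0.34, edgeR adjusted p = 3.64e-05), by 1.19 in NES (SE 0.32, edgeR adjusted p = 0.022), by 1.29 in NLS (SE 0.32, edgeR adjusted p = 0.013) and by 1.23 in NLSKD (SE 0.32, edgeR adjusted p = 0.020). Under vehicle EV read 4.81, 4.98 and 3.36 CPM and WT 1.73, 0.935 and 0.628, a log2 change of -1.99 (SE 0.34, edgeR adjusted p = 0.000275). In the other lines under vehicle the change in RPL10L was -0.85 in NES, -0.62 in NLS and -0.92 in NLSKD, none called, and the NLS libraries overlapped those of EV.

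Single libraries decided several of these calls. Without EV R1881 library 2, RPL10L was no longer called in NES (edgeR adjusted p = 0.097), NLS (edgeR adjusted p = 0.062) or NLSKD (edgeR adjusted p = 0.085). The same held without NES R1881 library 1 or 2, without NLS R1881 library 1 or 3, and without NLSKD R1881 library 1 or 2, with adjusted p between 0.053 and 0.12. The WT calls did not depend on any 1 library, and leaving each of 6 out in turn gave log2 changes from -2.48 to -2.17 under R1881. The counts behind RPL10L ran from 16 to 194 per library.

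RPL10, the X-linked namesake that joins the large subunit late in its assembly, did not follow its retrogene. Its CPM under R1881 was 1053, 1357 and 977 in EV and 924, 1068 and 1130 in WT, and the groups overlapped. RPL10 was called in no comparison. RPL10 and RPL10L are close copies, so fragments could have been assigned to either, and the part of this in RPL10L was not tested.

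RPL22, a protein of the large subunit that is not essential for translation and is known for binding RNA outside the ribosome, was higher in WT. Under R1881 its CPM was 223, 239 and 202 in EV, 388, 321 and 314 in WT, 258, 225 and 203 in NES, 311, 317 and 246 in NLS, and 288, 318 and 279 in NLSKD. All libraries of WT, NLS and NLSKD lay above those of EV, whereas those of NES overlapped them. The log2 change was 0.63 in WT (SE 0.16, edgeR adjusted p = 0.010), 0.05 in NES (not called), 0.40 in NLS (SE 0.16, edgeR adjusted p = 0.15) and 0.41 in NLSKD (SE 0.16, edgeR adjusted p = 0.14). The libraries of the NLS and NLSKD comparisons pair by number, and once that number was fitted as a block RPL22 was called in NLS (0.39, edgeR adjusted p = 0.042) and in NLSKD (0.42, edgeR adjusted p = 0.032). The call in WT was lost without EV R1881 library 3 (edgeR adjusted p = 0.062) or without WT R1881 library 1 (edgeR adjusted p = 0.093), and in a fit of the compared groups alone (edgeR adjusted p = 0.058).

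Under vehicle RPL22 read 232, 292 and 215 CPM in EV and 349, 338 and 327 in WT, again without overlap. That difference, 0.45 on the log2 scale, was not called (edgeR adjusted p = 0.087). It was called with EV vehicle library 2 left out (0.59, edgeR adjusted p = 0.042) and with the replicate block (0.46, edgeR adjusted p = 0.015), although the numbers do not pair these libraries. RPL22L1, the paralog whose mRNA RPL22 is known to repress through its splicing or stability, showed no such pattern. Its CPM under R1881 was 396, 580 and 402 in EV and 509, 376 and 429 in WT, and it was called in no comparison.

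**Figure D3:**
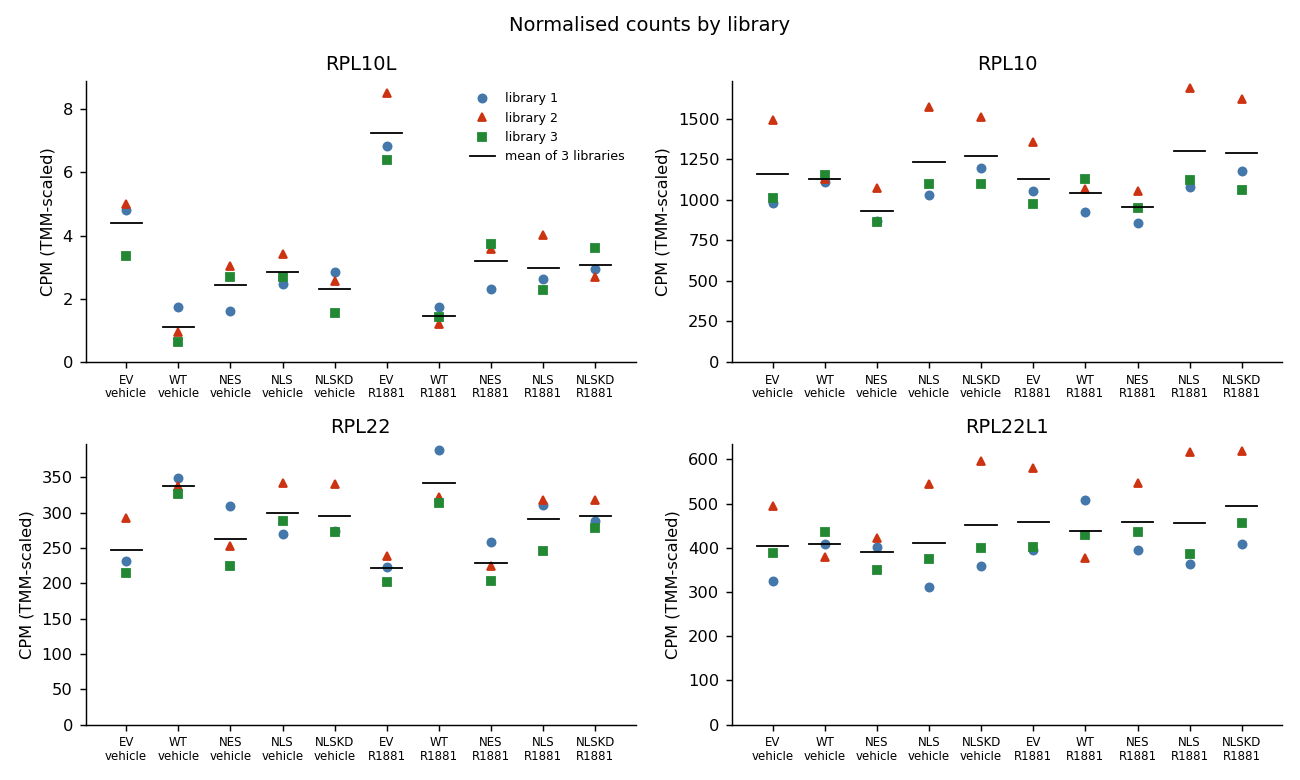
TMM-scaled CPM (vertical axes, from 0) of RPL10L, RPL10, RPL22 and RPL22L1 in the 3 libraries of each group; symbols give the library number and lines the mean. RPL10L under R1881 lies at 6.40 to 8.50 CPM in EV and at 1.21 to 4.02 in the rescued groups, and RPL22 in WT R1881 lies at 314 to 388 CPM against 202 to 239 in EV R1881.

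RPS4Y1, the Y-linked copy of the small-subunit gene RPS4X, was lower than in EV in all 8 comparisons with it and was called in 7 of them by edgeR's test. Under R1881 the log2 change of RPS4Y1 was -1.21 in WT, -1.08 in NES and -0.86 in NLS, each called, and -0.69 in NLSKD (edgeR adjusted p = 0.092), where the blocked fit called it (edgeR adjusted p = 0.0073). Under vehicle it was -1.26 (WT), -1.24 (NES), -0.87 (NLS) and -0.86 (NLSKD), all called. The calls in NLS and NLSKD were lost when single libraries were left out. Under R1881 these were EV library 2 and NLS libraries 1 and 3. Under vehicle they were EV libraries 2 and 3, NLS libraries 1 and 3, and each of the 3 NLSKD libraries. RPS4X differed from EV by at most 0.23 on the log2 scale in either direction and was called in none of the 8.

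No other member was called against EV by the test without a block. The members' median log2 difference from EV was -0.12 (WT), -0.10 (NES), 0.07 (NLS) and 0.04 (NLSKD) under R1881, and -0.18, -0.19, 0.09 and 0.01 under vehicle. Medians over all genes lay between -0.02 and 0.04. Under vehicle 19 of 84 members were above 0 in WT and 11 in NES, against 61 in NLS and 42 in NLSKD. These medians turned on single libraries. Without EV vehicle library 2 the vehicle medians were 0.13 (WT), 0.04 (NES), 0.35 (NLS) and 0.27 (NLSKD). With all libraries numbered 2 left out, they were 0.05, -0.11, 0.08 and 0.17. The NLS median turned to -0.13 without NLS vehicle library 2, and the NLSKD median to -0.13 without EV vehicle library 3. Without the 5 libraries above 9% mitochondrial counts all 4 lay below 0, at -0.32 (WT), -0.31 (NES), -0.25 (NLS) and -0.19 (NLSKD). Under R1881 that fit gave -0.30 for NLS, as did leaving out NLS R1881 library 2. Of the libraries compared there, both leave out that library alone, so these are not separate checks. Leaving out NLSKD R1881 library 2 gave -0.20 for NLSKD, and leaving out EV R1881 library 2 gave 0.06 for WT and 0.05 for NES.

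Of the proteins of the ribosomal stalk, RPLP1 had the lowest difference of a canonical gene in NES under vehicle, -0.67 on the log2 scale (SE 0.23), which was not called (edgeR adjusted p = 0.11) except with the replicate block (-0.64, edgeR adjusted p = 0.0032), where the numbers do not pair the libraries. Its CPM was 1386, 2226 and 1687 in EV and 1116, 1229 and 995 in NES, and the groups did not overlap. RPL3L differed from EV under vehicle by 1.33 on the log2 scale in both NLS and NLSKD. It was not called by the test without a block (edgeR adjusted p = 0.097 and 0.11). The blocked fit called it in NLS (edgeR adjusted p = 0.010), where the numbers pair the libraries. That fit also called RPL3L in NLSKD (edgeR adjusted p = 0.0097), where the numbers do not pair them. Its counts were 31, 39 and 12 in EV, 51, 88 and 54 in NLS and 64, 74 and 61 in NLSKD, so it is a low-count gene. RPL26, whose level is uncertain, read 21.5, 41.2 and 37.5 CPM in WT R1881 and 27.9, 37.9 and 34.2 in NES R1881. All of these libraries lay above those of EV R1881, the lowest of which read 15.4, and with log2 differences of 0.98 and 0.97 neither was called (edgeR adjusted p = 0.27 and 0.29), beside a within-group SD of 0.69 for this gene.

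**Figure D4:**
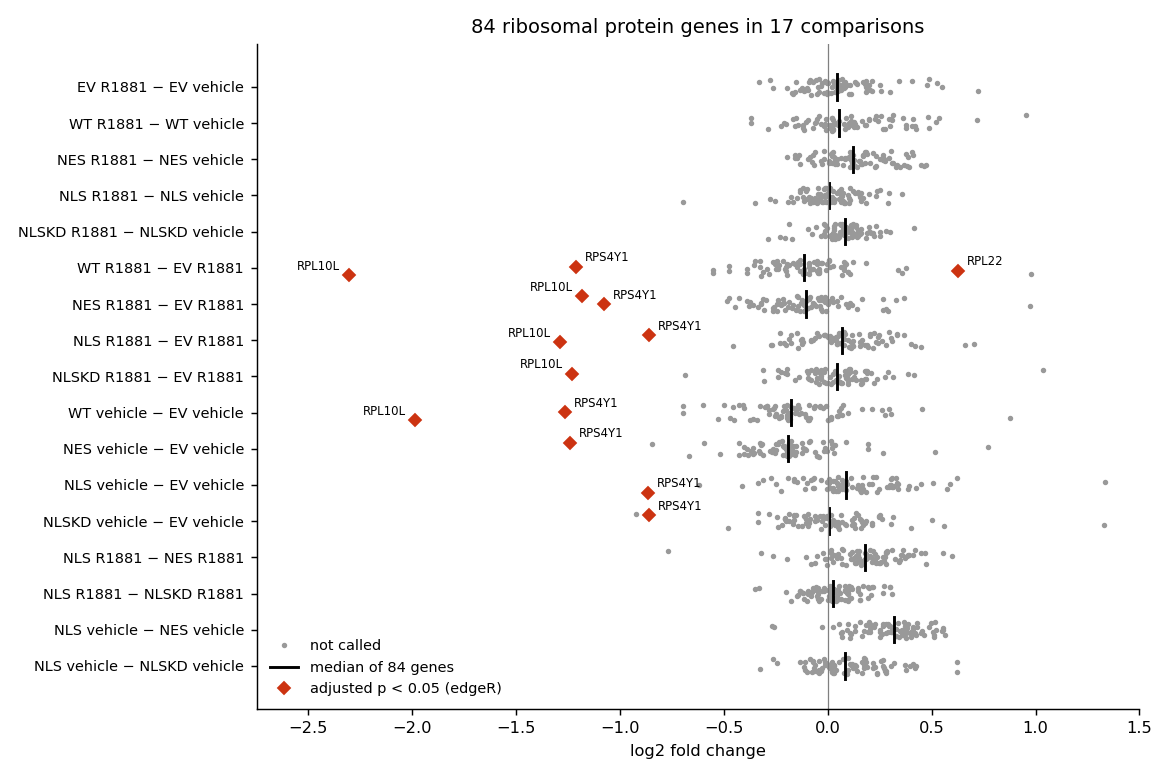
Log2 fold changes (horizontal axis) of 84 ribosomal protein genes in 17 comparisons; black bars mark the median and red diamonds the genes with an edgeR adjusted p under 0.05. Red points appear only in comparisons with EV and are RPL10L, RPS4Y1 and RPL22; the medians lie between -0.19 and 0.32.

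The third question was whether nuclear mTOR differed from the nuclear-excluded form, and whether kinase activity mattered. NLS against NES called 0 of 84 members under either treatment, by edgeR and by DESeq2, against 1.37% of all genes under R1881 and 1.03% under vehicle. At an unadjusted p under 0.05 there were 6 and 1, with no share of all genes at that threshold to set beside them. The 1.37% and 1.03% are for adjusted p. The members lay on 1 side: under vehicle 81 of 84 were higher in NLS, with a median log2 difference of 0.32, and under R1881 72 of 84, with a median of 0.18. The all-gene medians were -0.005 and 0.005. Leaving out NLS vehicle library 2 took the vehicle median to 0.06, and leaving out NLS R1881 library 2 took the other to -0.23. With all libraries numbered 2 left out, the vehicle median was 0.23 and the R1881 median -0.09. Without the libraries above 9% mitochondrial counts they were 0.06 and -0.08. Of the libraries compared, that leaves out NLS library 2 alone under vehicle, so the 0.06 repeats the removal above. Under R1881 it leaves out library 2 of both NLS and NES.

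In the NLS and NES libraries under R1881 the replicate number pairs the samples, and the blocked fit called RPLP0 (0.54, edgeR adjusted p = 0.016) and RPLP1 (0.60, edgeR adjusted p = 0.014), 2 of 84 members against 2.96% of all genes. RPLP0 read 2599, 2911 and 2849 CPM in NES and 3835, 4998 and 3449 in NLS, without overlap. RPLP1 read 841, 1286 and 1045 in NES and 1502, 2010 and 1290 in NLS, also without overlap. Without the block their adjusted p was 0.24 and 0.30. NLS against NLSKD called 0 members under either treatment (0.00547% of all genes under R1881 and 0.0109% under vehicle), by edgeR and by DESeq2. At an unadjusted p under 0.05 there were also 0, again with no share of all genes at that threshold. The members' medians were 0.03 and 0.08. Leaving out 1 library moved them from -0.35 (without NLS R1881 library 2) to 0.28 (without NLS R1881 library 1) and from -0.14 (without NLS vehicle library 2) to 0.21 (without NLS vehicle library 1). Without the libraries above 9% mitochondrial counts they were -0.34 and -0.05. Under R1881 the only compared library this leaves out is again NLS library 2, and under vehicle it leaves out library 2 of both lines. With the block, 0 members were called in NLS against NES under vehicle (3.06% of all genes) and in NLS against NLSKD (0.0109% under R1881 and 0.0273% under vehicle).

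Few genes of the other lists around the ribosome were called, and their shares were not tested against those of the members. Of 4 ribosomal genes that the symbol rule does not take, none was called in any comparison. Of 17 translation factors and other genes known for TOP mRNAs, NAP1L1, a histone chaperone, was lower than in EV in NES under R1881 (-0.74) and in NLS under vehicle (-1.01). No other was called. Of 77 proteins of the mitochondrial ribosome, MRPS18A rose with R1881 in all 5 lines, by 0.83 (NLS and NLSKD) to 1.41 (NES) on the log2 scale. Others called with R1881 were MRPS27 in EV (-0.46) and MRPL32 (0.59) and MRPL35 (-0.57) in NES, while MRPL50 was lower than in EV in WT under R1881 (-0.50) and vehicle (-0.47) and in NLS under R1881 (-0.53). Of 47 ribosome biogenesis factors POLR1D, a subunit of RNA polymerases I and III, fell with R1881 in EV (-0.46), WT (-0.44) and NES (-0.45). Among 15 genes of mTOR signalling to ribosomes, MTOR itself aside, DEPTOR, an inhibitor of mTOR, fell with R1881 in all 5 lines, from -0.54 (WT) to -0.82 (NLSKD) on the log2 scale. Of 11 snoRNA host genes, SNHG16 fell with R1881 in WT (-0.74) and no other was called.

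Libraries of the same group differed in these genes. The SD of log2 CPM within groups, pooled over the 10 groups, had a median of 0.38 over the 84 members, beside 0.33 over all genes tested and 0.27 over 4409 other coding genes with a mean of at least 50 CPM. It was 0.46 for the 4 ribosomal genes outside the rule, 0.45 for the snoRNA hosts, 0.38 for the genes of mTOR signalling and 0.31 for the mitochondrial ribosome. As edgeR's biological coefficient of variation the members' median was 0.255, beside 0.265 over all genes tested and 0.196 over the abundant coding genes, so the order of members and all genes depends on the measure. The SD of the 10 group means went the other way, 0.15 for the members, 0.23 for all genes and 0.18 for those abundant genes. In 81 of 84 members the within-group SD exceeded the SD of the group means. The SD of means of 3 libraries is expected to be below the within-group SD even without a group effect. This count is therefore no evidence that groups did not differ, and the medians over all genes stood in the same order. The exceptions were the 3 genes called above from the same libraries, RPL10L (0.32 and 0.64), RPS4Y1 (0.29 and 0.46) and RPL22 (0.17 and 0.22).

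Members differed among themselves in this spread. The largest within-group SD belonged to RPL36 (0.87), RPL26 (0.69), RPL35 (0.63), RPL8 (0.60) and RPL37 (0.60), all of the large subunit. RPL36 read 135, 1267 and 662 CPM in the 3 libraries of NLS R1881 and 470, 692 and 503 in EV R1881. The former group spanned the whole range of the latter. The smallest belonged to RPL10A, RPL7L1 and RPL7 (0.15 each), RPL22 (0.17) and RPS15A (0.21). RPL10A read 478, 684 and 686 CPM in NLS R1881 and 678, 612 and 649 in EV R1881. The median was 0.41 for canonical large-subunit genes and 0.36 for canonical small-subunit genes.

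The spread had a common direction. Averaged over the 10 groups, library 2 exceeded the mean of libraries 1 and 3 by a median of 0.46 on the log2 scale over the members, and 80 of 84 were above 0. Over all genes tested the median was 0.01 and 51.0% were above 0. This contrast was chosen after the library shares were seen and is given as a description, without a test. It was largest in NLS R1881 (median 0.94, 79 of 84 members above 0), NLSKD R1881 (0.67, 78) and EV vehicle (0.66, 79), and smallest in WT vehicle (0.05, 51) and WT R1881 (0.08, 56). The 4 members below 0 were RPL21 (-0.44), RPS27 (-0.26), RPS12 (-0.17) and RPL7L1 (-0.12). RPL21, a large-subunit protein, read 586, 422 and 573 CPM in EV vehicle, where library 2 was its lowest, and 495, 372 and 529 in NLS R1881.

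Other genes of the translation machinery did not all move with library 2. The 17 other TOP genes had a median of -0.002, with 8 above 0. The 4 ribosomal genes outside the rule had 0.60 (4 of 4), the snoRNA hosts 0.44 (10 of 11), the mitochondrial ribosome 0.30 (65 of 77), the biogenesis factors 0.06 (31 of 47) and the genes of mTOR signalling -0.29 (5 of 15).

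Several library measures moved with it. The mitochondrially encoded share was highest in library 2 in 6 of 10 groups, and the share of 2306 coding genes shorter than 1500 bases in 8. The library total was highest in library 2 in 1 group. The deepest libraries, NES R1881 library 1 (61.8 M) and NLS R1881 library 1 (39.5 M), had the lowest ribosomal protein share of their groups (6.04% and 5.58%). In WT R1881 the deepest, library 3 (28.7 M), had the highest (7.94%). The median transcript length was 689 bases for members and 1852 for all genes tested. GC content of the transcripts ordered the difference both among members and among other genes. Among members the median was 0.36 below 45% GC, 0.42 from 45 to 50%, 0.48 from 50 to 55% and 0.61 at 55% and above. Among the other abundant coding genes it was -0.35, -0.18, -0.02 and 0.26 in the same classes, so members lay above the others in each class. Spearman's rho between GC and the library 2 difference was 0.49 over 84 genes of the same libraries. The part of length, GC content, mitochondrial share and library total in the members' spread was not tested.

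**Figure D5:**
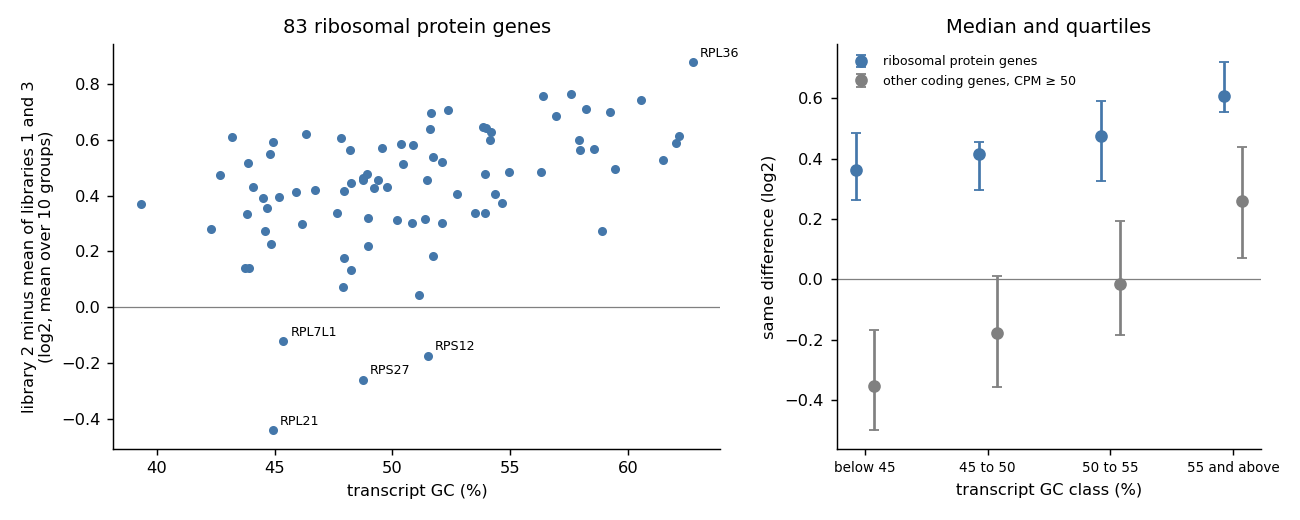
Left, transcript GC content (percent) of 83 ribosomal protein genes against the log2 difference of library 2 from the mean of libraries 1 and 3, averaged over 10 groups; right, median and quartiles of that difference by GC class for members and for other coding genes of at least 50 CPM. RPL36 is the highest point, and RPL21, RPS27, RPS12 and RPL7L1 lie below 0.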

How the data were processed

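The authors deposited raw read counts and FPKM for 58735 genes in 30 libraries, per the file headers. HISAT2 2.0.5, featureCounts 1.5.0-p3 and the hg38 build are named in the submitters' processing notes. The sources used here do not give strand and multiple-match settings. Deposited FPKM were checked against counts per gene length: among well-counted genes 100% lay within 0.1% of 1 common scale per library. From the counts, edgeR 4.0.16 (TMM, filterByExpr, quasi-likelihood F test) was fitted in R 4.3.3 to all 30 libraries with 1 mean per group. A gene was called at an adjusted p under 0.05 among 18296 genes. Shares of all genes at an unadjusted p under 0.05 are not given, so member counts at that threshold are description only. Standard errors follow from the F statistic, and intervals are the estimate ± 1.96 standard errors. CPM are TMM-scaled, and spreads use log2(CPM + 0.5). Alternatives were DESeq2 1.42.0, limma 3.58.1 on log2(FPKM + 1), other scalings and filters, a replicate block, and fewer libraries. The functions were tested on simulated data.

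Libraries with the same number were taken as paired where all 3 correlations of their deviations from the group means exceeded 0.1. This held in 9 of 17 comparisons of 2 groups: R1881 against vehicle in EV, WT, NES and NLSKD, NLS and NLSKD against EV under R1881, NLS against NES under R1881, and NLS against EV and against NLSKD under vehicle. Replicates differed by more than sampling noise (lowest chi-square per degree of freedom 12.7). Named genes were those called, the 5 extremes of level and spread, the paralogs, and up to 4 called genes per list. Members and lists were chosen with earlier results of these data known. Levels of Y-linked genes are not reported, and some items are not reported here. Intervals cover the spread between libraries only.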

Additional observations from a re-analysis of the deposited data

Results flagged for a closer look

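Annotated pseudogenes of ribosomal protein genes lie outside the 86 genes compared, yet they held reads: together their counts came to 4.41% of the members' own counts. Of 1144 such pseudogenes, 621 had no count in any library. Their share of all counts ran from 0.263% to 0.494% per library and was highest in library 2 in 9 of 10 groups, as it was for the members themselves. The leading ones were RPL9P9 (600874 counts over 30 libraries), RPS2P5 (320556) and RPL7P1 (154443).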

How the results depend on the processing

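The number of members called was compared over 21 comparisons. With RLE factors, with scaling factors computed without the members and mitochondrial genes, and with limma on FPKM, each of the 21 counts stayed within 1.5 times that reported. Alternatives were run for 26 gene differences (all calls of the members, with and without the block, among them), and none of these reversed its sign. The other named differences were not rerun. DESeq2, the fit without the libraries above 9% mitochondrial counts and the fit with no filter on low counts each called 2 members in NLSKD against EV under R1881, where 1 is reported. No filter also gave 2 in the androgen response of WT and 4 in WT against EV under vehicle. In a fit of the compared groups only, 0 members were called in NLS against EV under R1881 or vehicle and 0 in NLSKD against EV under vehicle. That fit called 3 in NES against EV under R1881, as did the fit with no filter, where 2 are reported. In WT against EV under R1881 it also called 3, the number reported, but RPL22 was not among them. The members it added are not named here. Leaving out all libraries numbered 2, an alternative chosen after seeing the data, gave 1 in NES, 1 in NLS and 0 in NLSKD against EV under R1881.

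With the replicate block, 4 members were called in NES (adding RPLP1 and RPL4), 3 in NLS and 3 in NLSKD against EV under R1881. Under vehicle it gave 3 in NES (adding RPLP1 and RPS23), 2 in NLS and 2 in NLSKD (adding RPL3L), and 2 in NLS against NES under R1881. It added RPS6 in WT under R1881 and RPL22 in WT under vehicle. The block changed no other call. Of the 30 libraries, 22 were most like those of their own number: 9 of 10 numbered 1, 10 numbered 2 and 3 numbered 3.

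Leaving out 1 library at a time gave 2 to 3 members in WT, 1 to 2 in NES, 0 to 2 in NLS and 0 to 1 in NLSKD against EV under R1881, and 2 to 3, 1, 0 to 1 and 0 to 1 under vehicle. It gave 0 in each of the other comparisons. The share of ribosomal protein counts moved by more than its SD in WT vehicle (8.28% of nuclear coding counts, 8.73% of FPKM), NLSKD vehicle (9.45% of nuclear coding counts) and WT R1881 (8.90% of FPKM). The part of depth in these results was not tested, and RPL10L, RPL3L and RPS10 rest on few counts.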
